A study of Mus musculus with 16 samples.

Results

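The sirtuins are the enzymes that remove acetyl and other acyl groups from proteins and consume NAD+ in doing so. The mouse has 7 of them, Sirt1 to Sirt7, and they were taken from the deposited table by gene symbol, 7 of 54532 listed genes. All 7 passed the filter on low counts in every comparison. Because each deacylation uses up a molecule of NAD+ and releases nicotinamide, sirtuins are known as sensors of the NAD+ supply and are among the enzymes through which NAD+ precursors are thought to act. Sirt1, Sirt6 and Sirt7 encode mainly nuclear proteins, Sirt2 a mainly cytosolic protein that is abundant in myelinating oligodendrocytes, and Sirt3, Sirt4 and Sirt5 mitochondrial proteins. RNA-seq measures the transcripts of these genes and neither the activity of the enzymes nor the amount of NAD+.

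Hippocampal RNA was sequenced from 16 mice, of which 4 were WT, 4 hTau.P301S, 4 WT + NR and 4 hTau.P301S + NR. In hTau.P301S animals the Thy1 promoter, active mainly in neurons, drives a P301S mutant form of human Tau, which WT mice lack. NR is nicotinamide riboside, a precursor of NAD+, given at 6 mM in drinking water for 3 months, while the other mice had vehicle water. According to the sample labels the mice were 12 months old when treatment began and 15 months old at its end, and behavioral tests were done before tissue was taken; the study's text gives other ages and durations, and no test here used either.

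Total counts per mouse ranged from 16490261 to 21915362. One library, hTau.P301S replicate 1, stood apart before any sirtuin was considered, with 14.4% of its counts from mitochondrial genes and 19467 genes detected. The other 15 mice had from 4.48% to 7.07% mitochondrial counts and at least 22199 genes, and the fold changes of sirtuins that it moved, with the medians of the gene lists, are therefore given with and without it. Markers of hippocampal neurons, 5 genes, summed to between 332 and 741 CPM in each mouse. A single one of them, Spink8, was as low as 0.777 CPM in an hTau.P301S + NR mouse. CPM is the usual scaling of counts to library size, here with TMM-normalized totals. The human transgene has no row in the table, and mouse Mapt ranged from 188 to 477 CPM in hTau.P301S and from 370 to 447 CPM in WT mice. In bulk tissue, fewer cells of a type and less RNA per cell cannot be told apart.

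The genes of the family lie on 5 chromosomes of GRCm38 and are protein coding. The 2 members whose groups separated, Sirt4 (ENSMUSG00000029524, chr5:115478010-115484725, minus strand) and Sirt6 (ENSMUSG00000034748, chr10:81621785-81627797, minus strand), overlap no other annotated gene. Exons of Sirt3 (chr7:140863666-140882309) share up to 418 bases with Ric8a and up to 329 bases with Psmd13 on the opposite strand, those of Sirt2 (chr7:28766735-28788661) share 42 bases with Nfkbib on the opposite strand, and those of Sirt7 (chr11:120618372-120625240) share 124 bases with Mafg on the same strand. Whether reads were counted by strand is not given in the sources used here, so the counts of Sirt2 and Sirt3 may include reads of their neighbors. Those of Sirt7 may as well, since counting by strand would not separate it from Mafg. Sirt1 (chr10:63319005-63381704) shares 65 bases with the antisense gene Gm16145, which had a mean of 0.438 counts, and Sirt5 (chr13:43365496-43395203) overlaps no gene.

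The stretches before the start sites of Sirt4 and Sirt6 are shown because these genes gave the differences described below, with that of Sirt1, whose groups overlapped in every comparison, beside them. They come from RefSeq (GRCm38.p6), in which all 7 genes had an entry, and are written 5′ to 3′ on the minus strand, with matches to the searched motifs in capitals. The first covers chr5:115484298-115484327, the 30 bases before the Sirt4 start. Both Sirt6 stretches, chr10:81627690-81627719 and chr10:81627582-81627611, lie before the first Sirt6 start and inside an exon that GENCODE annotates further upstream. The last covers chr10:63339071-63339158 before the Sirt1 start.
Sirt4: gtgttctgatccggctgaaggtttcccgct
Sirt6, first stretch: catcaggaggGCGCATGCGCtctggaaaga
Sirt6, second stretch: cccttcaccaCTTCCGGcggaagcggcctc
Sirt1: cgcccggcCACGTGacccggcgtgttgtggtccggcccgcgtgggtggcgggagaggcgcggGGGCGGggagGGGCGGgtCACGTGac
In the 250 bases before the start, searched on both strands for CACGTG (E-box), GGGCGG (GC box), CCAAT, a pair of GCGC blocks 2 bases apart (NRF1 motif), CCGGAAG (ETS motif) and TATAAA, Sirt4 held no match. The first Sirt6 start held the NRF1 motif, found in 4.98% of 32851 promoters, and the ETS motif, found in 6.91%, while the second Sirt6 start listed held neither and 1 GC box. Sirt1 held 2 E-boxes, a motif found in 6.02% of promoters, and 6 matches to the GC box, of which 2 overlap, a motif found in 32.7%. Of the 7 sirtuin genes, 3 held the ETS motif, Sirt3 and Sirt7 besides Sirt6, and 6 held the GC box. The NRF1 motif and the E-box were each held by 1. Such matches describe the sequence and say nothing about binding, nor do the missing letters.

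To set members against each other, CPM was divided by the gene length listed in the deposited table, whose definition the authors do not state. Sirt2 was by far the most abundant sirtuin of the hippocampus, with a median of 27.4 CPM per kb over 16 mice and from 21.8 to 65.2. The lowest mouse for Sirt2 lay above the highest for Sirt3, and Sirt2 made up 54.6% (median) of the summed length-adjusted level of the family, with a range of 43.7% to 58.7%. Sirt3, the main mitochondrial deacetylase, followed with a median of 6.27 CPM per kb and exceeded Sirt6 in 16 of 16 mice, although their ranges over mice overlapped. Sirt6, Sirt7, Sirt4 and Sirt1 had medians of 4.61, 4.10, 3.56 and 3.24 CPM per kb. The order among these 4 was not stable across mice, since Sirt6 exceeded Sirt7 in 10, Sirt7 exceeded Sirt4 in 11 and Sirt4 exceeded Sirt1 in 12 of 16 mice. Sirt5, which removes succinyl, malonyl and glutaryl groups, was the lowest with a median of 1.54 CPM per kb and lay below Sirt1 in 15 of 16 mice, the exception being hTau.P301S replicate 1.

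**Figure D1:**
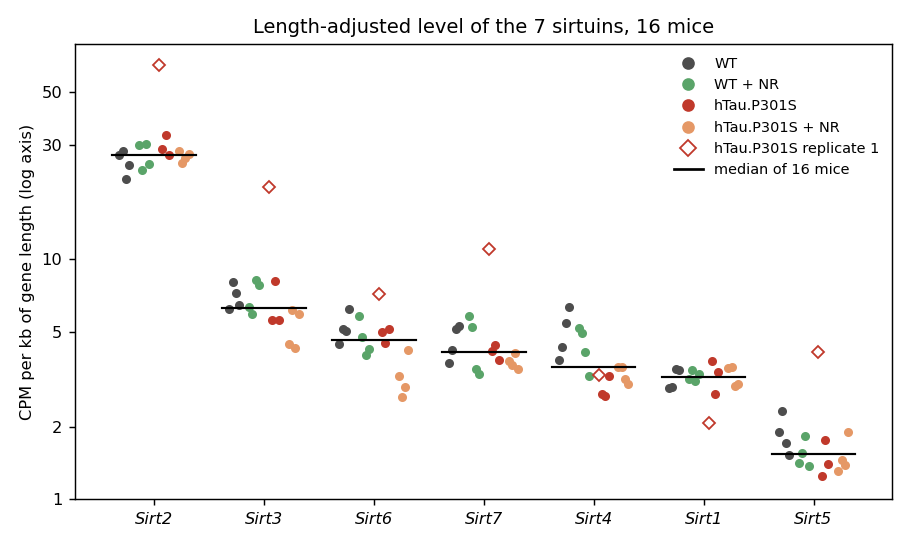
Each point is 1 mouse (n = 16), with the level of each sirtuin in CPM per kb of gene length on a log axis and the genes ordered by their median (black line). Sirt2 lies apart from all others at a median of 27.4, Sirt6, Sirt7, Sirt4 and Sirt1 overlap, and the open diamond of hTau.P301S replicate 1 is the highest mouse for 5 genes and the lowest for Sirt1.

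The raw counts behind these levels were modest for the less abundant members. Sirt4 had from 92 to 280 counts per mouse, Sirt6 from 142 to 319, Sirt5 from 144 to 293 and Sirt1 from 129 to 418, while Sirt2 had from 2079 to 3839. Counting error alone was 10.4% of the level in the mouse with the fewest Sirt4 counts and 2.19% in that with the fewest Sirt2 counts.

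In hTau.P301S replicate 1 the balance of the family differed from the other 15 mice. Relative to their median, this mouse had 3.25 times the Sirt3 level, 2.73 times the Sirt7 level, 2.69 times the Sirt5 level, 2.39 times the Sirt2 level and 1.60 times the Sirt6 level, but 0.622 times the Sirt1 level and 0.919 times the Sirt4 level. Its Sirt2 reached 328 CPM against at most 167 CPM in any other mouse, and its Sirt3 reached 120 CPM against at most 49.2 CPM. Its Sirt1, at 11.0 CPM, was the lowest of all mice, which otherwise had from 14.7 to 20.0 CPM. The same mouse had the highest summed level of oligodendrocyte markers (10739 CPM, others 2900 to 9728) and of microglia markers (1649 CPM, others 241 to 494), and the lowest of neuron markers (3463 CPM, others 4194 to 10578). Their part in its sirtuin levels was not tested.

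**Figure D2:**
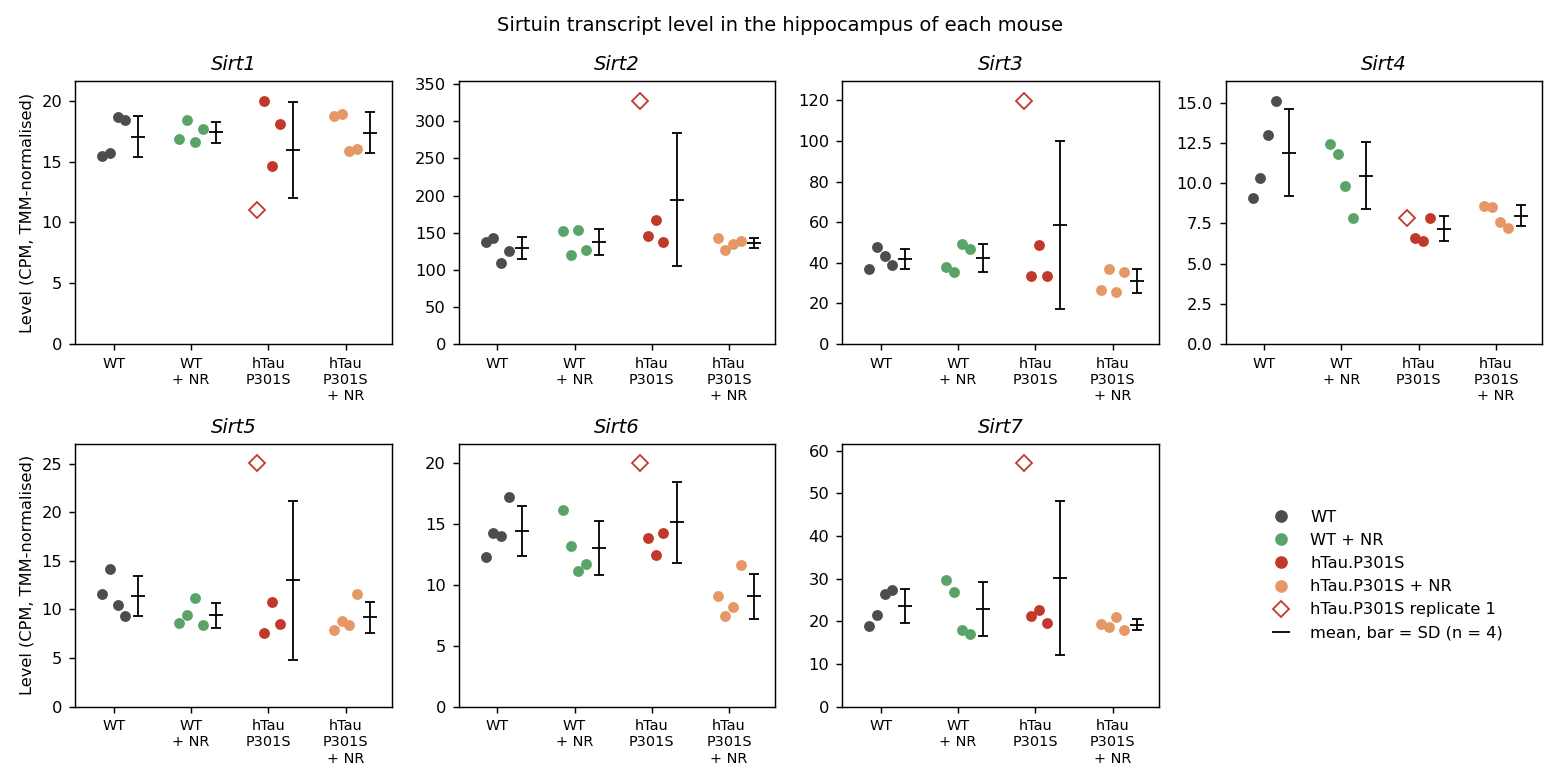
Each panel gives 1 sirtuin in CPM for the 4 mice of each group, with the mean and SD as a black bar and hTau.P301S replicate 1 as an open diamond. All hTau.P301S mice lie below all WT mice for Sirt4, all hTau.P301S + NR mice lie below all hTau.P301S mice for Sirt6, and the wide bars of Sirt2, Sirt3, Sirt5 and Sirt7 in hTau.P301S come with the single diamond.

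Comparing hTau.P301S with WT mice asks how the sirtuins differed with the Tau transgene in untreated animals. Sirt4, a mitochondrial lipoamidase and ADP-ribosyltransferase that restrains glutamate and pyruvate oxidation, was the one member whose groups did not overlap. Its level was 9.10, 10.3, 13.0 and 15.1 CPM in the 4 WT mice and 7.86, 6.57, 6.43 and 7.81 CPM in the 4 hTau.P301S mice. Every hTau.P301S mouse was thus below the lowest WT mouse, and the transgenic mice were also the more uniform, with an SD of 0.776 CPM against 2.72 CPM (n = 4 each). The log2 fold change was -0.73 (SE 0.24, 95% interval -1.26 to -0.20), or 0.604-fold, with an unadjusted p of 0.0130 and an adjusted p of 0.598 in edgeR, so Sirt4 did not pass the test over 16375 genes. The exact permutation test gave a two-sided p of 0.0286, the smallest that 4 mice against 4 allow. Every gene whose groups do not overlap reaches this value, so it adds nothing to the separation.

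No sirtuin was called at an adjusted p under 0.05 in this comparison by edgeR, where 0.00611% of all genes were, and 1 of 7 had an unadjusted p under 0.05 against 7.14% of all genes. The groups did not overlap for 6.24% of genes, beside 1 of 7 sirtuins. Without hTau.P301S replicate 1 the Sirt4 change was -0.79 (edgeR unadjusted p = 0.00769, adjusted p = 0.314). In that fit 11.8% of all genes had an unadjusted p under 0.05. As an alternative added once the data had been seen, DESeq2 with all 4 groups in one fit gave Sirt4 an adjusted p of 0.0277, while the adjusted p ranged from 0.0277 to 0.858 over the 9 alternatives that kept all mice.

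For the other 6 members the direction or the size of the estimate changed when the mouse that stood apart was left out. Sirt2 had a log2 fold change of 0.60 (SE 0.31, edgeR unadjusted p = 0.0815), which became 0.21 without hTau.P301S replicate 1. Sirt3 changed from 0.50 to -0.13, Sirt7 from 0.36 to -0.16, Sirt5 from 0.20 to -0.35 and Sirt6 from 0.07 to -0.10 when this mouse was left out. The Sirt6 estimate also changed sign, to -0.03, without WT replicate 1. Sirt1, the nuclear deacetylase of p53, FOXO factors and PGC-1α, had -0.10 with it and 0.04 without it. With all mice 5 of 7 estimates were above 0, as were 52.3% of all genes, and their median was 0.20, and without this mouse 2 of 7 were above 0 and their median was -0.13, while the median over all genes tested was 0.02 with all mice.

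The genotypes were compared a second time within the NR-treated mice, which share no animal with the first comparison. Sirt4 was again lower, with 12.4, 11.8, 9.82 and 7.84 CPM in WT + NR and 8.56, 8.51, 7.62 and 7.24 CPM in hTau.P301S + NR mice. The groups overlapped because 1 WT + NR mouse, at 7.84 CPM, fell inside the transgenic range, and the log2 fold change was -0.39 (SE 0.18, 95% interval -0.79 to 0.00, edgeR unadjusted p = 0.0515, adjusted p = 0.781). Sirt6, a chromatin-bound nuclear deacetylase, had a log2 fold change of -0.52 (SE 0.19, edgeR unadjusted p = 0.0208), and 3 of 4 hTau.P301S + NR mice lay below all WT + NR mice. Sirt3 had a log2 fold change of -0.45 (SE 0.17, edgeR unadjusted p = 0.0254), with from 35.2 to 49.2 CPM in WT + NR and from 25.5 to 36.9 CPM in hTau.P301S + NR mice. All 7 estimates were below 0, where 47.0% of all genes had a log2 fold change above 0, but the estimate of Sirt1 was 0.00 and those of Sirt2 and Sirt5 were -0.02 and -0.03.

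No sirtuin passed the adjusted threshold in edgeR here, where 0.0540% of genes did, and 2 of 7 had an unadjusted p under 0.05, as 6.09% of genes did. The groups overlapped for all 7 sirtuins and did not overlap for 3.73% of genes. The adjusted p was 0.781 for Sirt3, Sirt4 and Sirt6 alike. The 95% intervals were -0.26 to 0.25 for Sirt1 and -0.27 to 0.22 for Sirt2.

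Over all 16 mice, with NR as a term in the fit, Sirt4 ranked 68 of 17555 genes by p-value for genotype. Its log2 fold change was -0.56 (SE 0.14, 95% interval -0.86 to -0.26), an edgeR unadjusted p of 0.00115 and an adjusted p of 0.287. An exact permutation of the genotype labels, without regard to NR, gave a two-sided p of 0.000777. It was lower in hTau.P301S in all 16 fits that left out 1 mouse, with log2 fold changes from -0.63 to -0.49. DESeq2 gave an adjusted p of 0.0368 and called 115 genes in all, while edgeR called 21 genes or 0.120%. At an unadjusted p under 0.05 there was 1 of 7 sirtuins against 7.75% of genes, and 4 of 7 estimates were above 0 against 51.6%. Over the 7 alternatives that kept all mice the adjusted p of Sirt4 ranged from 0.0368 to 0.515. Without hTau.P301S replicate 1, Sirt3 (-0.30, edgeR unadjusted p = 0.0308) and Sirt6 (-0.33, edgeR unadjusted p = 0.0241) joined Sirt4 below an unadjusted p of 0.05, whereas with all mice they had 0.02 and -0.23. The share of all genes below an unadjusted p of 0.05 rose as well, to 13.3% without this mouse, and Sirt4 had -0.57 there.

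**Figure D3:**
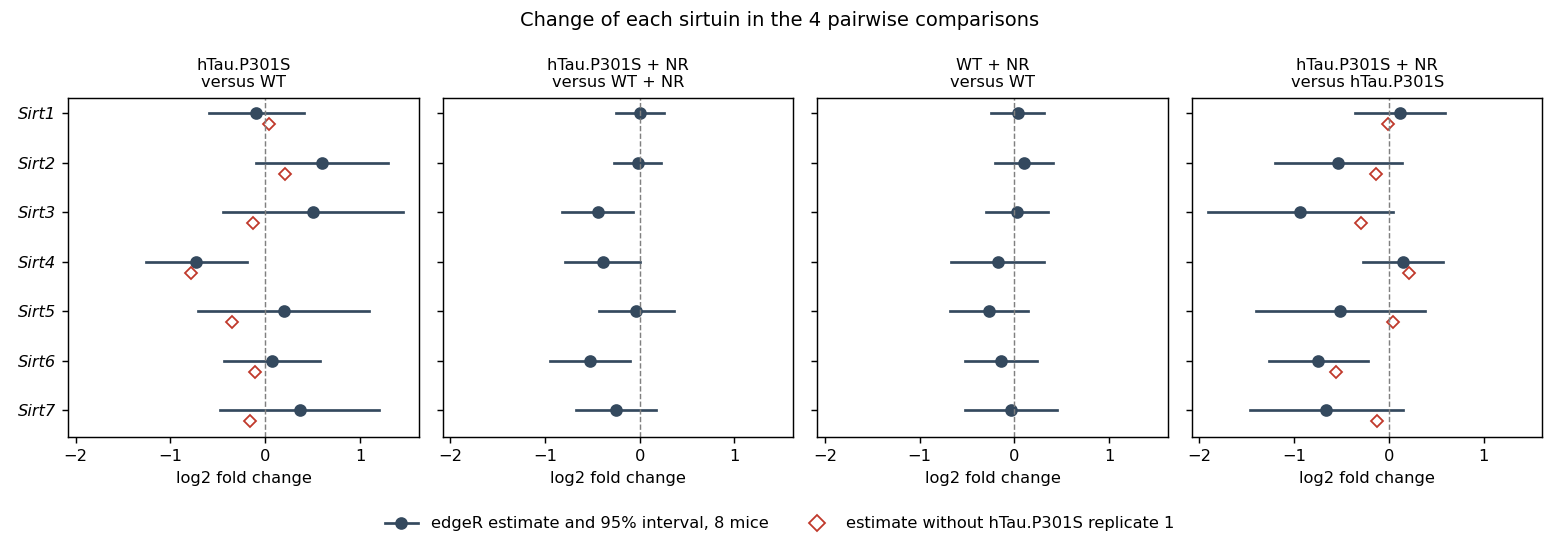
Log2 fold change of each sirtuin in the 4 pairwise comparisons, with the edgeR estimate and its 95% interval as a dot and line (8 mice) and the estimate without hTau.P301S replicate 1 as an open diamond. The diamonds of Sirt2, Sirt3, Sirt5 and Sirt7 move toward or across 0 in both comparisons that use this mouse, while Sirt4 stays near -0.73 against WT and Sirt6 stays below 0 with NR.

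In WT mice, NR was given without the transgene, and no sirtuin separated the groups. The log2 fold changes were 0.03 for Sirt1, 0.10 for Sirt2, 0.03 for Sirt3, -0.18 for Sirt4, -0.27 for Sirt5, -0.14 for Sirt6 and -0.03 for Sirt7. The smallest unadjusted p was 0.173 in edgeR, for Sirt5, and 0 of 7 sirtuins had an unadjusted p under 0.05, as had 0.790% of all genes. The groups overlapped for all 7, while 0.754% of genes had groups that did not, and 3 of 7 estimates were above 0 against 51.1%. No gene was called at an adjusted p under 0.05 by edgeR in this comparison, while DESeq2 called 3 genes, none of them a sirtuin. The 95% intervals of Sirt1 (-0.24 to 0.31) and Sirt2 (-0.20 to 0.41) were the narrowest of the family.

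In hTau.P301S mice, NR went with a lower Sirt6 level. Sirt6 had 20.0, 13.8, 12.5 and 14.3 CPM in the 4 hTau.P301S mice and 9.10, 7.41, 8.18 and 11.7 CPM in the 4 hTau.P301S + NR mice. Every treated mouse was below every untreated transgenic mouse, and all 4 were also below the WT range of 12.3 to 17.3 CPM. Sirt4 in hTau.P301S + NR mice, at most 8.56 CPM, likewise lay below its WT range, which began at 9.10 CPM. The share of all genes that separate hTau.P301S + NR from WT mice was not counted. For Sirt6 with NR in hTau.P301S mice the log2 fold change was -0.74 (SE 0.23, 95% interval -1.27 to -0.22), or 0.597-fold. The unadjusted p was 0.0109 and the adjusted p 0.367 in edgeR. The exact permutation test gave the smallest two-sided p possible, 0.0286. Any gene whose groups do not overlap reaches that permutation p. Without hTau.P301S replicate 1, the highest mouse for Sirt6, the change was -0.56 (SE 0.18, edgeR unadjusted p = 0.0121, adjusted p = 0.166). In that fit 3008 of 16734 genes had an unadjusted p under 0.05, against 2110 of 16386 with all mice. The adjusted p of Sirt6 ranged from 0.0520 to 0.658 over the 9 alternatives that kept all mice.

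Separation of the groups was common in this comparison, with 11.9% of all genes without overlap and 12.9% at an unadjusted p under 0.05, beside 1 of 7 sirtuins by either measure, and 0.00610% of genes and no sirtuin were called at an adjusted p under 0.05 by edgeR. Of the 7 estimates 2 were above 0, against 47.6% of genes. Sirt3 had a log2 fold change of -0.93 (SE 0.43, edgeR unadjusted p = 0.0583), which became -0.29 without hTau.P301S replicate 1. Sirt2 went from -0.53 to -0.14, Sirt7 from -0.66 to -0.13 and Sirt5 from -0.51 to 0.05 in the same way. Sirt4 did not follow Sirt6, with a log2 fold change of 0.15 (SE 0.18), or 0.21 without hTau.P301S replicate 1, and 2 of 4 treated mice were above all untreated transgenic mice. Sirt1 had a log2 fold change of 0.12 (SE 0.21, 95% interval -0.36 to 0.59), or -0.01 without hTau.P301S replicate 1.

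Whether NR acted differently in the 2 genotypes was tested as an interaction over 16 mice. No sirtuin passed, where 0% of genes did at an adjusted p under 0.05 in edgeR, 7.92% had an unadjusted p under 0.05 and DESeq2 called 16 genes, none of them a sirtuin. Sirt6 had the smallest unadjusted p, 0.0543, with an interaction of -0.59 on the log2 scale (SE 0.28, 95% interval -1.19 to 0.01), which was -0.42 without hTau.P301S replicate 1. Of the 7 interaction estimates 2 were above 0, against 48.3% of genes. Across both genotypes Sirt6 had a log2 fold change of -0.44 with NR (SE 0.16, edgeR unadjusted p = 0.0123, adjusted p = 0.585), which was -0.34 without hTau.P301S replicate 1, and 6 of 8 NR-treated mice were below all 8 mice on vehicle water. In that test 0% of genes were called by edgeR, 2 by DESeq2 and 5.74% had an unadjusted p under 0.05, beside 1 of 7 sirtuins, and 1 of 7 estimates was above 0, against 48.7%. Sirt4 had -0.02 and Sirt1 0.07.

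Technical measures and cell markers varied both between and within these groups. Mice of the hTau.P301S group had from 19467 to 23073 genes detected, WT mice from 22603 to 24918 and hTau.P301S + NR mice from 23215 to 24090. All 8 oligodendrocyte markers had a log2 fold change above 0 when hTau.P301S was compared with WT, with a median of 0.70, and 1 of them, Cldn11 (1.02), had an unadjusted p under 0.05. Summed, they ranged from 2900 to 8393 CPM in WT and from 7846 to 10739 CPM in hTau.P301S mice. All 3 endothelial markers were below 0, with a median of -0.68, and their sum ranged from 93.5 to 196 CPM in WT and from 56.2 to 98.6 CPM in hTau.P301S mice. Markers of choroid plexus and of striatal neurons, tissues next to the hippocampus, varied widely within groups, from 19.0 to 7755 CPM and from 60.2 to 1244 CPM over the 4 WT mice. In the same comparison the medians were 0.21 for 6 neuron, 0.52 for 6 microglia, -0.09 for 5 astrocyte, -0.07 for 2 oligodendrocyte precursor, -0.09 for 5 hippocampal, -1.09 for 4 choroid plexus and -3.08 for 4 striatal markers, of which 3 striatal markers were lower and 2 microglia, 1 astrocyte and 1 hippocampal marker higher at an unadjusted p under 0.05. Of all genes, 7.14% passed this threshold in that comparison. Leaving out hTau.P301S replicate 1 gave medians of 0.52 for oligodendrocyte, -0.84 for endothelial, 0.46 for neuron, 0.11 for microglia, 0.20 for astrocyte, -0.01 for oligodendrocyte precursor, 0.20 for hippocampal, -0.72 for choroid plexus and -3.00 for striatal markers.

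With NR in hTau.P301S mice the medians were -0.33 for oligodendrocyte, 0.62 for endothelial, -0.35 for microglia, 0.35 for astrocyte, -0.11 for neuron, 0.20 for oligodendrocyte precursor, 0.17 for hippocampal, -0.43 for choroid plexus and 2.14 for striatal markers. At an unadjusted p under 0.05, 3 of 4 striatal markers were higher, as were 1 endothelial, 1 astrocyte and 1 microglia marker, and 1 oligodendrocyte and 1 hippocampal marker were lower. Of all genes, 12.9% passed this threshold in that comparison. When hTau.P301S replicate 1 was left out, the medians were -0.15 for oligodendrocyte, 0.45 for endothelial, 0.08 for microglia, 0.15 for astrocyte, -0.35 for neuron, 0.14 for oligodendrocyte precursor, 0.11 for hippocampal, -0.79 for choroid plexus and 2.08 for striatal markers. Groups did not overlap for the oligodendrocyte markers Cldn11 and Mal (0.70) in hTau.P301S versus WT, nor with NR in hTau.P301S for Cldn11 (-0.47), the endothelial Flt1 (1.32) and the hippocampal Spink8 (-2.87). Of all genes, 6.24% and 11.9% had groups without overlap in these 2 comparisons. No marker was called by edgeR. The part of the markers and technical measures in the Sirt4 and Sirt6 differences was not tested.

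Sirt2 is known as a protein of myelin, and its level was set against the mean log2 CPM of 8 oligodendrocyte markers over 16 mice. Pearson's r was 0.60 (permutation p = 0.0627) and Spearman's rho was 0.67 (permutation p = 0.00548, adjusted over the 14 relations of 7 sirtuins with 2 marker lists 0.0767). Without hTau.P301S replicate 1, r was 0.69 (permutation p = 0.00339, adjusted 0.0475). However, once the 2 mice farthest from the median marker level were removed, r was 0.49 starting from the 16 mice and 0.35 starting from the 15. With group means subtracted and labels permuted within groups, r was 0.51 (permutation p = 0.00976, adjusted 0.0404). The relation thus had 1 sign in these settings and passed the adjusted threshold in some of them by r. By rho it passed in none, with an adjusted permutation p of 0.0622 with group means subtracted and 0.281 without hTau.P301S replicate 1.

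**Figure D4:**
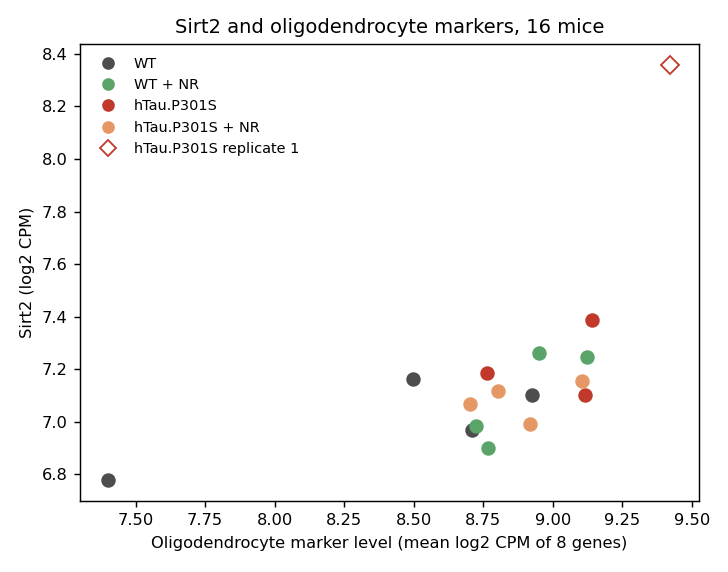
Sirt2 in log2 CPM against the mean log2 CPM of 8 oligodendrocyte markers, 1 point per mouse (n = 16), colored by group. Sirt2 is higher where the markers are higher (r = 0.60), with 1 WT mouse at the lower left and hTau.P301S replicate 1, the open diamond, alone at the upper right.

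Against the mean of 6 neuron markers, Sirt5 (r = -0.77, permutation p = 0.00130, adjusted 0.0182) and Sirt3 (r = -0.69, permutation p = 0.00460, adjusted 0.0322) passed the adjusted threshold over 16 mice. Their rho values were -0.51 (permutation p = 0.0448, adjusted 0.314) and -0.37 (permutation p = 0.161, adjusted 0.591). By rho no relation of a sirtuin with either marker list passed the adjusted threshold in any setting. Without hTau.P301S replicate 1 neither Sirt5 nor Sirt3 passed by r, with -0.57 for Sirt5 (permutation p = 0.0256, adjusted 0.179) and -0.38 for Sirt3 (permutation p = 0.162, adjusted 0.453). With group means subtracted both passed, with r of -0.82 for Sirt5 and -0.79 for Sirt3 (permutation p adjusted 0.0404 for each). Sirt2 had r of -0.64 with neuron markers (permutation p = 0.0164, adjusted 0.0675), -0.82 with group means subtracted (permutation p adjusted 0.0404) and -0.18 without hTau.P301S replicate 1, and neither relation of Sirt2 was tested against the other. Sirt1 had r of 0.60 with neuron markers (permutation p = 0.0193, adjusted 0.0675) and 0.21 without that mouse. Sirt4 had r of -0.02 with neuron and -0.43 with oligodendrocyte markers, and Sirt6 had -0.23 and 0.03, none past the threshold.

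The sirtuins did not vary as one family. Over 16 mice Sirt6 and Sirt7 had a Spearman correlation of 0.76, and 0.71 without hTau.P301S replicate 1, the highest among the 21 pairs in both cases. Sirt3 and Sirt5, both mitochondrial, had 0.66 and 0.59. Sirt4, which is mitochondrial as well, had 0.24 with Sirt3 and 0.21 with Sirt5. Sirt1 ran opposite to Sirt5, at -0.69 and -0.62 without that mouse. These values are descriptions across the mice of 4 groups, and the mice differed in total counts and in the levels of cell type markers.

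The 5 genes of 17555 whose level ran most like that of each member over 16 mice were named by Spearman's rho. For Sirt3 they were Ndufb6, a subunit of respiratory complex I (0.94), Timm13, a mitochondrial import chaperone (0.94), Rnaseh2c, Fam181b and Sumf2. For Sirt5 they were Mrps14 (0.94), Polr2i, B9d2, Pfdn1 and Mrps36, of which Mrps14 encodes a protein of the mitochondrial ribosome. For Sirt6 they were Fbxl6 (0.90), Hnrnpl, Ppib, Tor2a and Whamm. The same 5 genes were nearest to Sirt3, Sirt5 and Sirt6 when hTau.P301S replicate 1 was left out.

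For Sirt2 the nearest genes were Mlc1, an astrocyte membrane protein (0.92), Cst3, cystatin C (0.91), Abhd4, Kctd5 and Prcp. For Sirt1 they were Gpbp1l1 (0.85), Slc35e2, Rc3h2, Lrrc58 and Dennd6a, and for Sirt7 Mier2 (0.91), Zfp653, Mfsd10, Gm47135 and Fam174b. In each of these 3 lists 4 of 5 genes stayed without that mouse. For Sirt4 they were 1700063D05Rik (0.86), Acrbp, Gm30238, Zgpat and Dcdc2b, and 2 of 5 stayed, so the neighbors of Sirt4 were the least settled.

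Genes that act on the sirtuins or on their NAD+ supply were taken as a list of 14, all of which passed the filter. None was called in any of the 7 tests by edgeR. Between hTau.P301S and WT mice, 10 of 14 had a log2 fold change above 0 with a median of 0.06, beside a median of 0.02 over all genes, and none had an unadjusted p under 0.05. Leaving out hTau.P301S replicate 1 gave a median of 0.11, and 4 were higher at an unadjusted p under 0.05, as 11.8% of all genes were in either direction. In hTau.P301S + NR relative to WT + NR mice, Nmnat3, which makes NAD+ in mitochondria, was 1.76 ± 0.301 CPM and 2.66 ± 0.364 CPM (SD, n = 4 each), without overlap, with a log2 fold change of -0.60 (SE 0.23, edgeR adjusted p = 0.781). Groups did not overlap for 1 of 14 in that comparison, beside 3.73% of all genes. With NR in hTau.P301S mice, 9 of 14 were below 0 with a median of -0.08. In that comparison 1 had an unadjusted p under 0.05, beside 12.9% of all genes. Leaving out hTau.P301S replicate 1 gave a median of -0.17, with 13 of 14 below 0.

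Among 15 mitochondrial substrates of Sirt3, Sirt4 and Sirt5, all kept by the filter in hTau.P301S relative to WT, 1 was higher and 1 lower at an unadjusted p under 0.05, where 7.14% of all genes passed, and none was called by edgeR. The lower one was Acss1, the mitochondrial acetyl-CoA synthetase that Sirt3 activates, at 29.4 ± 3.05 CPM in hTau.P301S and 40.4 ± 4.43 CPM in WT mice (SD, n = 4 each), a log2 fold change of -0.46 (SE 0.16, edgeR adjusted p = 0.598). The higher one was Ppif, cyclophilin D of the permeability transition pore, at 30.4 ± 2.99 CPM and 23.2 ± 1.21 CPM (SD, n = 4 each), a log2 fold change of 0.39 (SE 0.16, edgeR adjusted p = 0.598). Both separated the groups without overlap, as did 6.24% of all genes, and without hTau.P301S replicate 1 they were -0.39 and 0.38. With NR in hTau.P301S mice Ppif was 24.4 ± 1.06 CPM (SD, n = 4), again without overlap with the untreated transgenic mice, and Ndufa9, a complex I subunit, was 74.6 ± 9.83 CPM against 135.9 ± 84.2 CPM (SD, n = 4 each; log2 fold change -0.88, edgeR adjusted p = 0.367), which was -0.32 without hTau.P301S replicate 1. Groups did not overlap for 2 of 15 substrates with NR in hTau.P301S mice, beside 11.9% of all genes. In that comparison 10 of 15 substrates were below 0 with a median of -0.14, beside -0.03 over all genes. Without hTau.P301S replicate 1, 11 of 15 were below 0, with a median of -0.20.

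Among 15 nuclear substrates and targets of Sirt1, Sirt6 and Sirt7, none was called by edgeR in any test with all mice. When hTau.P301S replicate 1 was left out, Acss2 was called for genotype over all mice, as were 0.335% of all genes. Acss2, the acetyl-CoA synthetase of nucleus and cytosol that Sirt1 deacetylates, came nearest, with 28.5 ± 1.53 CPM in hTau.P301S + NR and 43.1 ± 5.01 CPM in WT + NR mice (SD, n = 4 each), without overlap, a log2 fold change of -0.60 (SE 0.11, edgeR unadjusted p = 0.000334, adjusted p = 0.210). Bdnf, a neurotrophin, was 43.9 ± 5.06 CPM in hTau.P301S, 28.4 ± 12.0 CPM in WT and 29.0 ± 10.1 CPM in hTau.P301S + NR mice (SD, n = 4 each). The untreated transgenic mice overlapped neither of the other groups, but neither difference passed the unadjusted threshold in edgeR (log2 fold changes 0.63 and -0.60). With hTau.P301S replicate 1 left out the values were again 0.63 and -0.60, and the latter passed it. Trp53, whose product Sirt1 deacetylates, showed the same arrangement at 24.9 ± 2.83, 19.9 ± 2.90 and 19.8 ± 2.67 CPM (SD, n = 4 each). These were 2 of 15 genes without overlap in each comparison, beside 6.24% and 11.9% of all genes. The comparisons share the untreated hTau.P301S mice. The medians of the list without hTau.P301S replicate 1 were 0.14 and -0.04, and with it 0.02 and 0.12.

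The zinc-dependent deacetylases Hdac1 to Hdac11, which remove acetyl groups without NAD+, and 6 acetyltransferases that oppose the sirtuins were taken for comparison. Between hTau.P301S and WT mice, 7 of 11 zinc-dependent deacetylases were below 0 with a median of -0.03, and Hdac7 was 14.6 ± 1.24 CPM and 26.9 ± 11.9 CPM (SD, n = 4 each) without overlap (log2 fold change -0.88, SE 0.30, edgeR adjusted p = 0.598). Groups did not overlap for 1 of 11 in that comparison, beside 6.24% of all genes. Leaving out hTau.P301S replicate 1 gave -0.87 for Hdac7 and a median of -0.13. For NR in hTau.P301S mice the median was -0.06, beside -0.53 for the sirtuins with all mice and -0.13 for the sirtuins without hTau.P301S replicate 1. Hdac7 was 0.21 higher on the log2 scale with NR in hTau.P301S mice, without overlap (edgeR adjusted p = 0.469). In the 4 pairwise comparisons only Kat2a (GCN5) among the acetyltransferases separated any groups, at 59.0 ± 3.67 CPM in hTau.P301S + NR and 72.0 ± 5.91 CPM in hTau.P301S mice (SD, n = 4 each; log2 fold change -0.29, SE 0.14, edgeR adjusted p = 0.367). With NR in hTau.P301S mice groups thus did not overlap for 1 of 11 deacetylases and 1 of 6 acetyltransferases, beside 11.9% of all genes. The median of the zinc-dependent deacetylases was 0.00 and Kat2a was -0.23 when hTau.P301S replicate 1 was left out. The acetyltransferases had medians of 0.12 between hTau.P301S and WT and 0.02 with NR in hTau.P301S, and without this mouse 0.05 and 0.05. The difference between the families was not tested.

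Genes around the 2 members were examined for whether the difference extended along the chromosome. Within 500 kb of Sirt4, 20 coding genes besides it were tested in hTau.P301S relative to WT mice, with a median of 0.15. At an unadjusted p under 0.05 none was lower and 1, Rab35, was higher, beside 7.14% of all genes past this threshold. In hTau.P301S + NR relative to WT + NR mice 5 of the 20 were lower and none higher, beside 6.09% of all genes past this threshold. Within 500 kb of Sirt6, 37 coding genes were tested with NR in hTau.P301S mice, with a median of -0.28, and 3 were lower at an unadjusted p under 0.05 (Dohh, Matk and Pias4) and none higher, beside 12.9% of all genes past this threshold. When hTau.P301S replicate 1 was left out, the medians were -0.02 around Sirt4, with 1 lower and 1 higher, and -0.07 around Sirt6, with 3 lower and 1 higher of 38. These genes were named for their place and none was called by edgeR.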

How the data were processed

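After quality control with FastQC and trimming with Trim Galore, the authors used STAR on mm10 and RSEM, and deposited raw counts per gene, which are whole numbers without normalization; the table also holds a gene length, another value the authors list without a definition. The counts of 16 mice were fitted with edgeR 4.0.16 in R 4.3.3 (default filter on low counts, TMM, quasi-likelihood test) on all genes, with Benjamini-Hochberg adjustment and a threshold of 0.05. Pairwise tests used the 8 mice of 2 groups; genotype, NR and their interaction used all 16. Each standard error came from the log2 fold change and its test statistic. DESeq2 1.42.0 served as an alternative. CPM used TMM-normalized totals, and log2 CPM a prior count of 2.

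For single values an exact permutation test (two-sided) enumerated all regroupings, and correlations used 100000 permutations. P-values measure the spread between these mice. Replicate numbers come from the labels, which state no pairing, and no pair of libraries of a group agreed within sampling noise. Total counts of 16490261 to 21915362 per mouse limit the precision of the less abundant genes.

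The 7 members and all lists were chosen with earlier results of these data known. Named from each other list were at most 3 genes per pairwise comparison, those of smallest p whose groups did not overlap, and for each member the 5 genes of highest Spearman's rho. Alternatives were DESeq2, its size factors in edgeR, the filter dropped or set to a minimum of 10 counts per mouse, mitochondrial genes removed, a fit over all 4 groups, the robust fit, the replicate number as a block, and each mouse left out. Scripts were tested on simulated counts. Positions are those of GENCODE on GRCm38. Gene lists, named genes and neighbors were also fitted without hTau.P301S replicate 1, which was decided after the data were seen.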

Additional observations from a re-analysis of the deposited data

Results flagged for a closer look

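In hTau.P301S replicate 1, Sirt2 was 328 CPM, far from the other 3 mice of its group, which had from 137 to 167 CPM. The gap to the nearest mouse was 0.842 of the range of the group, above Dixon's critical value for 4 samples. In the same mouse Sirt7 was 57.1 CPM, while the others had from 19.6 to 22.6 CPM, with a gap of 0.919 of the range. These were 2 of 28 groups of 4 values checked, and chance flags about 1 in 20. Both values come from the library with 14.4% mitochondrial counts, whose part in them was not tested.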

How the results depend on the processing

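Of 399 log2 fold changes of sirtuins recomputed with all mice under other settings, 389 kept direction and call, 8 changed sign and 2 gained a call. Sirt4 was the 1 sirtuin called by DESeq2 for genotype over all mice (-0.57, adjusted p = 0.0368) and the 1 called for hTau.P301S versus WT by DESeq2 with all groups fitted together (-0.74, adjusted p = 0.0277), an alternative chosen after the data were seen. The sign changes were near 0. Sirt1 in hTau.P301S + NR versus WT + NR was 0.0066 with DESeq2, 0.0032 with its size factors, 0.010 without a filter, 0.0011 without mitochondrial genes and 0.0011 with DESeq2 fitted to all groups. Sirt3 for genotype was -0.0034 without a filter and -0.028 with the replicate block, and Sirt4 for NR over all mice was 0.012 without a filter. With the replicate block Sirt4 was -0.71 in hTau.P301S versus WT and Sirt6 was -0.74 with NR in hTau.P301S, neither called by edgeR, as without it. Same-numbered mice correlated from -0.54 to 0.29 in their deviations, so the numbers were not taken to pair them. For hTau.P301S versus WT the genes called numbered 1 in edgeR, 116 in DESeq2, 524 in DESeq2 fitted to all groups and 36 in edgeR fitted to all groups, and for NR in hTau.P301S 1, 254, 255 and 2. By Pearson's r, relations with markers past the adjusted threshold numbered 2 of 14, 4 with group means subtracted and 1 without hTau.P301S replicate 1, and by rho none passed. With group means subtracted Sirt4 against neuron markers was 0.11. Without that mouse Sirt3, Sirt5, Sirt6 and Sirt7 against oligodendrocyte markers were -0.22, -0.24, -0.18 and -0.29, and Sirt6 and Sirt7 against neuron markers were 0.11 and 0.39.

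With 1 mouse left out at a time, 42 of 560 log2 fold changes changed sign and none gained or lost a call. In hTau.P301S versus WT the ranges were -0.25 to 0.037 for Sirt1, -0.13 to 0.67 for Sirt3, -0.35 to 0.35 for Sirt5, -0.10 to 0.16 for Sirt6 and -0.16 to 0.49 for Sirt7. In hTau.P301S + NR versus WT + NR they were -0.045 to 0.047 for Sirt1, -0.086 to 0.040 for Sirt2 and -0.17 to 0.063 for Sirt5. With NR in hTau.P301S they were -0.0075 to 0.26 for Sirt1 and -0.68 to 0.045 for Sirt5, and with NR in WT -0.010 to 0.075 for Sirt1, -0.057 to 0.11 for Sirt3 and -0.21 to 0.087 for Sirt7. For genotype they were -0.10 to 0.019 for Sirt1, -0.30 to 0.11 for Sirt3, -0.18 to 0.15 for Sirt5 and -0.21 to 0.14 for Sirt7, for NR over all mice -0.051 to 0.064 for Sirt4, and for the interaction -0.040 to 0.22 for Sirt1 and -0.40 to 0.32 for Sirt5. Sirtuins without overlap numbered 1 to 2 in hTau.P301S versus WT (2 without hTau.P301S replicate 4), 0 to 1 in hTau.P301S + NR versus WT + NR (1 without hTau.P301S + NR replicate 4 or WT + NR replicate 2, 3 or 4) and 1 to 3 with NR in hTau.P301S (3 without hTau.P301S replicate 4, 2 without hTau.P301S + NR replicate 3). Groups separate more easily with a mouse left out, and the share of all genes without overlap was not counted for these settings. The causes were not tested. Sirt4, with as few as 92 counts in a mouse, is limited by depth.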
